A study of Mus musculus with 4 samples.

Results

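The genes described here are 9 transcripts that carry or tune the output of the Notch receptor, namely the Hes and Hey repressors Hes1, Hes5, Hes6, Hey1, Hey2 and Heyl, the feedback gene Nrarp, the Deltex gene Dtx4 and the Slug gene Snai2. They were picked by symbol from 55487 gene identifiers, and each symbol matched 1 identifier. They were measured in muscle stem (satellite) cells isolated from skeletal muscle of Tg:Pax7-nGFP mice, in which a nuclear green fluorescent protein marks cells with activity of the satellite cell gene Pax7. The labels used here do not state the age of the mice. While the minced muscle was being digested for the first time, it received either a control vivo-morpholino or one designed to block inclusion of Numb exon 6. A vivo-morpholino is an antisense oligomer that enters cells without transfection. Both morpholinos were applied to muscle of each of 2 mice, so that the 4 libraries form 2 pairs, all of them carrying the Pax7-nGFP transgene and all of them exposed to a morpholino and to tissue dissociation. No untreated library was analysed here.

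A Notch receptor that binds its ligand is cut, and its intracellular part enters the nucleus, where it joins the DNA-binding protein RBPJ and switches on target genes. The Hes and Hey proteins are the best known products of those targets. They are basic helix-loop-helix repressors that pair with each other and silence differentiation genes, and in satellite cells Notch activity of this kind is known for holding the cells undifferentiated. Numb is an endocytic adaptor known for dampening Notch, so the Notch effectors bear on the question the title of the study poses, whether splicing of Numb alters Notch signalling in activated muscle stem cells. Counts per gene do not show which Numb transcripts were made.

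The promoters are shown because the members differ in the letters near their start sites as well as in their levels. The RefSeq table of start sites on GRCm38.p6 held windows for 4 of the 9 members, and each is printed below from 250 bases before the start to 30 bases from the start on, read along the gene's strand. Capitals mark GTGGGAA, the core letters of an RBPJ site, CACGTG, an E-box, and CACNAG, an N-box bound by Hes proteins, each searched on both strands, so that TTCCCAC is the RBPJ core on the other strand. The windows are chr4:154960673-154960952 (plus strand) for Hes5, chr10:30842754-30843033 (minus strand) for Hey2, chr2:25180508-25180787 (plus strand) for Nrarp and chr1:91413193-91413472 (minus strand) for the Hes6 start that leads into its coding transcript.
Hes5: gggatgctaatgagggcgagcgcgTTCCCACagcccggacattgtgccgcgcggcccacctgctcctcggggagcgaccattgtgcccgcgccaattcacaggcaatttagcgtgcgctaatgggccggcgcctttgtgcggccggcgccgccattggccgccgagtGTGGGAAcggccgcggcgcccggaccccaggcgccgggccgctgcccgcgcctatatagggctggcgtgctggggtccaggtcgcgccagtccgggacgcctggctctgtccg
Hey2: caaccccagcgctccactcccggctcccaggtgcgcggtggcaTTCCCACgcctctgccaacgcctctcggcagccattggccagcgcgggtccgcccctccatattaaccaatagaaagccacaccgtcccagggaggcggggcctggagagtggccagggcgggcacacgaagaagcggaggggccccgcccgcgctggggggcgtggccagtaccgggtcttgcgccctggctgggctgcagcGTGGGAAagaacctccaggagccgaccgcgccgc
Nrarp: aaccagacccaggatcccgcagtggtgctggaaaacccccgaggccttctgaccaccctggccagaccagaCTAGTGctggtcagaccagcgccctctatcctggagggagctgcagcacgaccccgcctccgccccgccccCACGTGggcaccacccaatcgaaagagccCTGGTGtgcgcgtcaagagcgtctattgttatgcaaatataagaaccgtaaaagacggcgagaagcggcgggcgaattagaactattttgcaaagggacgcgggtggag
Hes6: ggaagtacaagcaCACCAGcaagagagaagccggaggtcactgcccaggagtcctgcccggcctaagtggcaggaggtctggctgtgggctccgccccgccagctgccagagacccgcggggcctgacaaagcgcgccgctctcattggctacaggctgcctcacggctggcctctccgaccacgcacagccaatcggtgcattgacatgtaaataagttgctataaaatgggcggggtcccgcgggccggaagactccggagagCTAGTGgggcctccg
The Hes5 and Hey2 windows each held the RBPJ core at 2 places, 1 per strand. The core was present in 5.94% of all 32851 windows of the same length, and at 2 or more places in 0.234% of them. In Hes5 it began 226 and 83 bases before the start, and in Hey2 207 and 4 bases before it. The Nrarp window held 1 E-box, which 6.79% of all windows had, and 2 N-boxes, and the Hes6 window held 2 N-boxes. At least 1 N-box was found in 40.2% of all windows, and N-boxes at 2 or more places in 9.93%. The windows of Nrarp and Hes6 did not hold the letters GTGGGAA, which says nothing of sites elsewhere. A second RefSeq start of Hes6 held none of the motifs. No motif overlapped another. Hes1, Hey1, Heyl, Dtx4 and Snai2 had no entry.

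The estimated counts summed to between 230431665 and 355411827 per library. They scale with TPM and transcript length, as coverage does, so the totals are not read as numbers of fragments. Counts scaled to a library's total by TMM factors are given as CPM and serve comparisons of 1 gene between libraries, while TPM, which is also scaled to transcript length, serves comparisons between genes. All 12 satellite cell markers were measured, with summed levels of 10796 to 12714 TPM per library. Most of the sum was Sdc4, a heparan sulfate proteoglycan of the satellite cell surface, at 6499 to 7673 TPM. Next came Myod1, the myogenic determination factor, and Pax7 had 37.0 to 59.7 TPM. In RNA from many cells, a lower level in each cell and a smaller number of cells with the transcript cannot be told apart.

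The members ranged from abundant to nearly undetected. Heyl and Hey1, the Hey genes most tied to satellite cell maintenance, stood highest, at a mean of 135 ± 30.6 and 75.8 ± 24.9 TPM (SD over the 4 libraries). Heyl was the more abundant of the pair in every library, with 94.1 (control) and 138 TPM (Numb exon 6) in mouse 1 and 141 and 168 TPM in mouse 2, against 50.2 and 66.2, then 77.8 and 109 TPM for Hey1. Their ranges nonetheless overlapped across libraries. Snai2, which encodes a zinc finger repressor, followed at 41.6 ± 11.3 TPM, Dtx4, which encodes a ubiquitin ligase of the Deltex family, at 39.5 ± 7.73 TPM, and Hes1, the classical effector, at 34.1 ± 5.96 TPM (SD). Snai2, Dtx4 and Hes1 did not separate beyond their spread, and the highest Snai2 library passed the lowest Hey1 library. Hes6, an atypical relative known for opposing Hes1, stood at 6.43 ± 1.70 TPM, apart from Hes1 above and Nrarp below in all 4 libraries. Nrarp and Hey2 stood at 1.04 ± 0.448 and 1.01 ± 0.236 TPM and could not be ordered. Among the 27551 genes that passed the expression filter, Heyl ranked 1001 and Hey1 1802 by mean TPM, while Hey2 ranked 15554.

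Hes5, a main Notch effector of neural progenitors, was the member that did not pass the filter. It was listed at 0 in 3 libraries and at 20 estimated counts (0.0961 TPM) in the Numb exon 6 library of mouse 1. The noncoding gene Gm20421 overlaps 756 bases of it on the opposite strand, and the protocol does not mark strand, so the few counts of the gene cannot be assigned with certainty. Hes5 and Hey2 were the members whose windows held the RBPJ core at 2 places. Hes5 was listed at 0 in 3 libraries, and Hey2 was 1 of the 2 least abundant members tested. All members with a window, Hes5, Hey2, Nrarp and Hes6, were less abundant by mean TPM than every member without one. The motifs therefore cannot be set against the levels of the members.

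**Figure D1:**
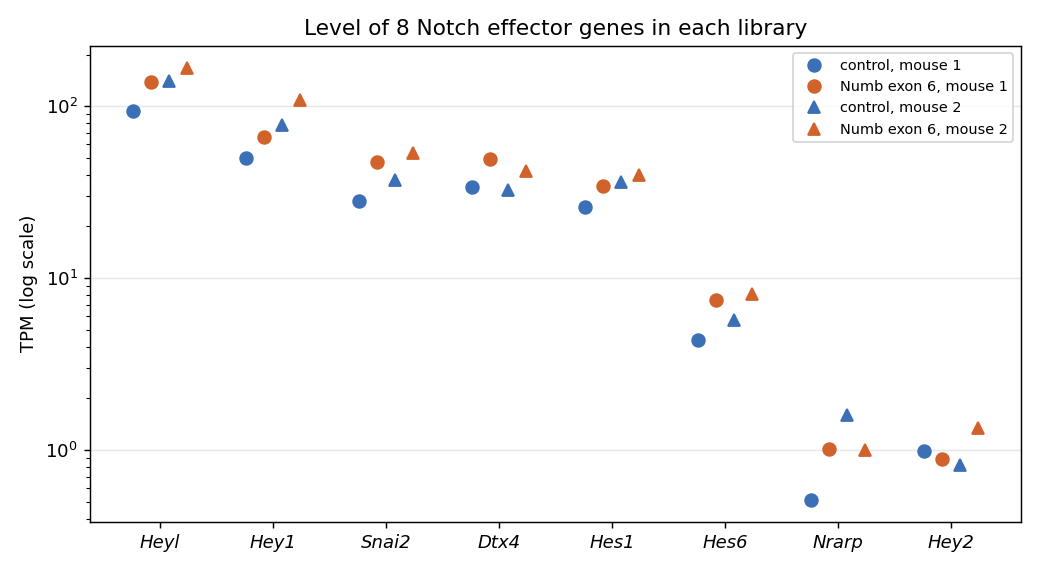
TPM (log axis) of the 8 tested members in each of the 4 libraries, with circles for mouse 1, triangles for mouse 2, blue for the control and orange for the Numb exon 6 morpholino. Heyl and Hey1 stand highest, Nrarp and Hey2 near 1 TPM, and Hes5, listed at 0 in 3 libraries, is not drawn.

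The comparison of the morpholinos asked whether the effectors differed when Numb exon 6 was targeted. 6 members, Snai2, Hes6, Dtx4, Hey1, Heyl and Hes1, were higher with the Numb exon 6 morpholino in both mice, and the fitted differences ran from 1.12-fold for Hes1 to 1.49-fold for Snai2 and Hes6. None passed the test (edgeR quasi-likelihood, adjusted p = 0.999 for all 8 tested members), and over all genes 0 were called (0.00%). Nrarp and Hey2, the 2 least abundant of those tested, went in opposite directions in the 2 mice. The summed level of the 9 members was 238 TPM with the control and 345 TPM with the Numb exon 6 morpholino in mouse 1, and 333 and 423 TPM in mouse 2. The scaling of the libraries also enters such TPM sums.

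The 6 of 8 tested members that were higher in both mice stand beside 28.1% of all tested genes, and 0 of 8 were lower in both, beside 27.3%. Among the 8540 genes whose mean log2 CPM was at least 3, the share higher in both was 31.1%. For 3 members, Snai2, Hes6 and Dtx4, both Numb exon 6 libraries lay above both controls, a pattern that 17.4% of all tested genes showed. The median log2 fold change was 0.37 over the 8 members and 0.005 over all tested genes. At an unadjusted edgeR p under 0.05 stood 2 of 8 members, Snai2 and Dtx4, beside 4.16% of all genes. With the mouse as a block they were 5 of 8, joined by Hes6, Hey1 and Heyl, beside 6.09%, and the block also called 0 members and 0 genes (0.00%). The members were chosen with earlier results of these data known, so these shares describe them and test nothing.

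Snai2 (GRCm38 chromosome 16, 14705852 to 14709385), which in myoblasts is known to occupy E-boxes that Myod1 later uses, had the smallest p of the members. In mouse 1 it had 30.4 CPM (control) and 49.1 CPM (Numb exon 6), and in mouse 2 it had 39.4 and 55.0 CPM. The groups did not overlap, and mouse 2 was the higher animal under both morpholinos. The group means were 34.9 ± 6.36 and 52.0 ± 4.17 CPM (SD, n = 2), and the ratios within the mice were 1.61-fold and 1.40-fold. The log2 fold change was 0.58 ± 0.18 (SE, edgeR unadjusted p = 0.0208), and blocking on the mouse gave 0.59 ± 0.11 (SE, edgeR unadjusted p = 0.0040, adjusted p = 0.796). In DESeq2 it was called once the mouse was a block (adjusted p = 0.0192; 0.699% of genes were called), and not without the block (adjusted p = 0.400; 0.241% of genes). It was the 1 member that any of the 15 alternatives called.

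Hes6 (chromosome 1, 91411483 to 91414038), whose product favours differentiation and is not among the genes that Notch generally induces, gave a difference of the same size from a lower level. Its control and Numb exon 6 values were 3.33 and 5.51 CPM in mouse 1, and 4.32 and 5.87 CPM in mouse 2. Both Numb exon 6 libraries lay above both controls, and the ratio was larger in mouse 1 (1.65-fold) than in mouse 2 (1.36-fold). The log2 fold change was 0.57 ± 0.23 (SE, edgeR unadjusted p = 0.0543), and 0.58 ± 0.21 (SE, edgeR unadjusted p = 0.0393) with the mouse as a block.

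Hes1 (chromosome 16, 30064384 to 30067796) is the Hes repressor whose level oscillates in progenitors and restrains Myod1. Mouse 1 had 19.3 CPM (control) and 24.2 CPM (Numb exon 6), and mouse 2 had 25.5 and 25.9 CPM. The difference was larger in mouse 1, where the control library was the lowest of the 4, and the groups overlapped. The log2 fold change was 0.16 ± 0.19 (SE), with a 95% interval from -0.31 to 0.63, and it was -0.02 without the control library of mouse 1.

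Hey1 (chromosome 3, 8663359 to 8667256) and Heyl (chromosome 4, 123233556 to 123249875) are direct Notch targets known to act together in keeping satellite cells undifferentiated. Hey1 had 63.8 (control) and 78.7 CPM (Numb exon 6) in mouse 1, and 94.4 and 131 CPM in mouse 2. The control of mouse 2 exceeded the Numb exon 6 library of mouse 1, so that the groups overlapped although both ratios, 1.23-fold and 1.39-fold, pointed up. Its log2 fold change was 0.41 ± 0.31 (SE, 95% interval -0.38 to 1.19). With the mouse as a block the same difference had an SE of 0.09 and a 95% interval of 0.14 to 0.63.

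Heyl ranked the 4 libraries in the same order, with 224 and 317 CPM in mouse 1 and 328 and 381 CPM in mouse 2. Its ratio was 1.41-fold in mouse 1 and 1.16-fold in mouse 2, and the log2 fold change was 0.34 ± 0.21 (SE, 95% interval -0.21 to 0.88; 0.10 to 0.61 with the mouse as a block). In both Hey genes the control of mouse 2 stood above the Numb exon 6 library of mouse 1. Without the Numb exon 6 library of mouse 2 the log2 fold change was -0.0080 for Hey1 and 0.20 for Heyl, and without the control of mouse 1 it was 0.15 and 0.09.

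Hey2 (chromosome 10, 30832359 to 30842801), the Hey gene known from arteries and heart, had 1.35 CPM (control) and 1.13 CPM (Numb exon 6) in mouse 1, and 1.07 and 1.73 CPM in mouse 2. It was lower in one animal (0.835-fold) and higher in the other (1.61-fold), at 328 to 473 estimated counts per library. The log2 fold change of 0.23 ± 0.36 (SE) has a 95% interval from -0.69 to 1.16, and a 2-fold rise lies within it.

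Dtx4 (chromosome 19, 12466338 to 12501454) had the smallest SE of the members. With the control and Numb exon 6 morpholinos it had 95.6 and 131 CPM in mouse 1, and 88.9 and 112 CPM in mouse 2. The 2 controls lay close together and both Numb exon 6 libraries stood above them. The group means were 92.3 ± 4.72 and 122 ± 14.0 CPM (SD, n = 2), and the ratios were 1.38-fold and 1.26-fold. The log2 fold change was 0.40 ± 0.13 (SE, edgeR unadjusted p = 0.0291), and blocking on the mouse gave an unadjusted p of 0.0079.

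Nrarp (chromosome 2, 25180758 to 25183339) encodes an ankyrin repeat protein that is induced by Notch and promotes loss of the Notch intracellular domain. The control and Numb exon 6 levels were 0.713 and 1.34 CPM in mouse 1, and 2.16 and 1.33 CPM in mouse 2. The Numb exon 6 libraries stood close together and lay between the controls, which differed most from each other. The ratios were 1.87-fold and 0.614-fold, and the log2 fold change of -0.11 ± 0.56 (SE, 95% interval -1.55 to 1.33) was 0.10 ± 0.50 (SE) with the mouse as a block. The antisense gene Gm38287 overlaps 2559 of the 2582 bases of Nrarp. It had at most 10 estimated counts in any library, beside 249 to 661 for Nrarp. Because strand was not marked, the split between them is uncertain.

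**Figure D2:**
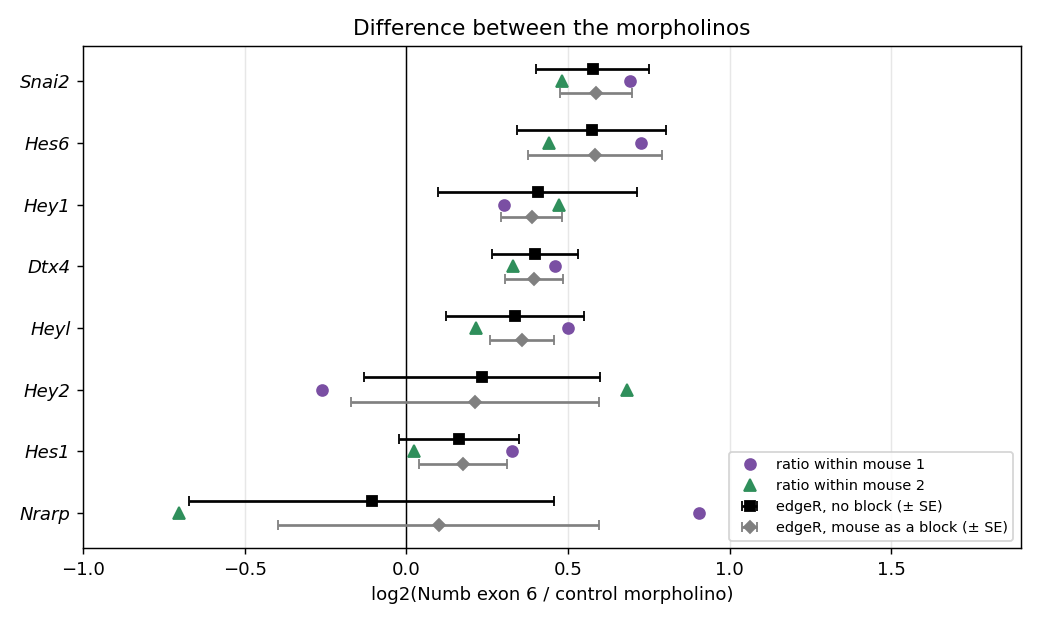
Log2 ratio of the Numb exon 6 to the control morpholino for the 8 tested members, with a circle for mouse 1, a triangle for mouse 2, and the edgeR log2 fold change ± SE without (square) and with (diamond) the mouse as a block. 6 members lie above 0 in both mice, Hey2 and Nrarp on either side of 0, and the SE of Hey1 narrows from 0.31 to 0.09 with the block.

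**Figure D3:**
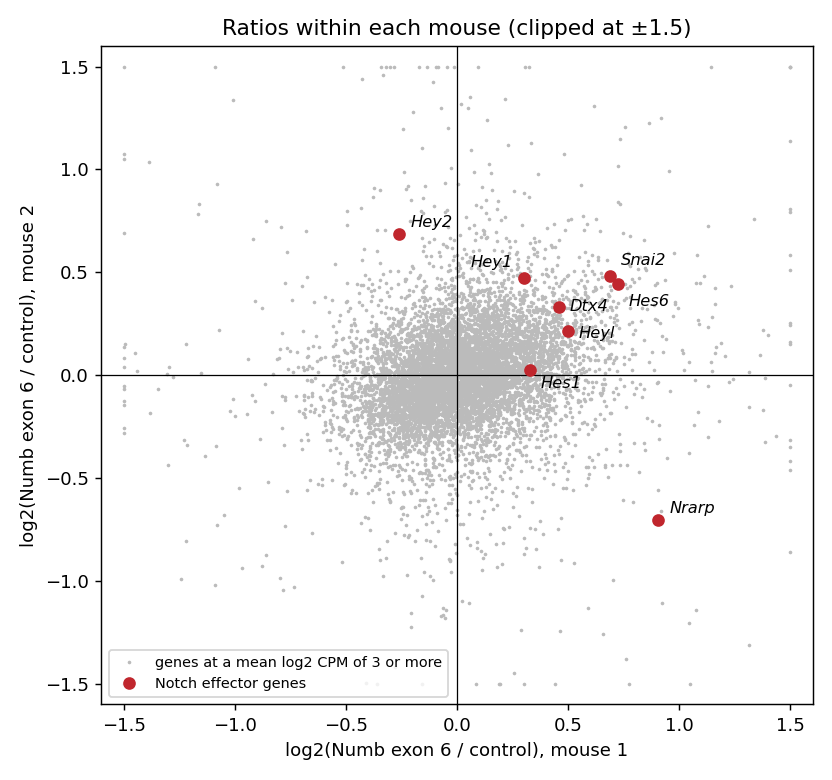
Log2 ratio in mouse 1 (x) against that in mouse 2 (y), in grey for the 8540 genes whose mean log2 CPM was at least 3 (values beyond 1.5 drawn at the edge) and in red for the 8 tested members. Snai2 and Hes6 lie farthest out where both ratios are above 0, and Nrarp, at 0.91 and -0.70, lies where the mice differ in sign.

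The ratios of the abundant members were placed among those of the 8540 genes whose mean log2 CPM was at least 3. Snai2 exceeded 97.8% of these genes in mouse 1 and 96.6% in mouse 2, and Dtx4 93.4% and 92.3%. Hey1 exceeded 84.8% and 96.4%, Heyl 94.6% and 84.4%, and Hes1 86.6% and 56.0%. Snai2 and Dtx4 held a similar place in both animals, whereas Hey1 stood higher in mouse 2 and Heyl and Hes1 in mouse 1. Whether the ratio itself differed between the mice cannot be tested with 1 library per morpholino in each.

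On the TPM scale, which allows for transcript length, the same 6 members were higher in both mice. The TPM ratios in mouse 1 and mouse 2 were 1.70-fold and 1.43-fold for Snai2, 1.71-fold and 1.41-fold for Hes6, 1.45-fold and 1.29-fold for Dtx4 and 1.33-fold and 1.11-fold for Hes1. The mean length of the transcripts assigned to a gene can be had from its counts and TPM. It stayed at that of the single annotated transcript for Dtx4, Snai2 and Nrarp in all libraries, within 5 bases. Of the members with several annotated transcripts, Hes1 varied most: its mean length was 1386 bases (control) and 1384 bases (Numb exon 6) in mouse 1, and 1354 and 1272 bases in mouse 2. The coding transcript of Hes1 has 1468 bases and its 3 noncoding ones have 344 to 653. Hes6 had a mean length of 1415 to 1443 bases, above the 1335 of its only coding transcript in all libraries. Its longest noncoding transcript has 1573 bases, so part of the Hes6 estimate was assigned to noncoding transcripts. The Hes1 ratio in mouse 2 was 1.11-fold in TPM and 1.02-fold in CPM. TPM ratios also exceeded CPM ratios where the length did not change, with 1.33-fold against 1.26-fold for Hes1 in mouse 1 and 1.43-fold against 1.40-fold for Snai2 in mouse 2, so the scaling of the libraries enters the gap too.

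The 2 animals were compared next, 1 against 1, with the 2 morpholino libraries of an animal as its only replicates. Of the 8 tested members 7 were higher in mouse 2 and Dtx4 was lower, and none passed (edgeR; 0.0254% of all genes were called). The median log2 fold change was 0.24 over the members and 0.016 over all tested genes. Leaving out single libraries turned the direction of Hes6, Hey2, Snai2 and Dtx4. For Hey1 both libraries of mouse 2 lay above both of mouse 1, with a log2 fold change of 0.66 ± 0.19 (SE, edgeR unadjusted p = 0.0168, adjusted p = 0.542), 1 of 8 members at an unadjusted p under 0.05 beside 8.31% of all genes. Heyl and Hes1 were likewise apart between the animals, with 0.39 ± 0.19 and 0.24 ± 0.15 (SE), and such separation was seen in 20.9% of all tested genes. For Hey1, Heyl, Hes1 and Nrarp the difference between the animals was larger in size than that between the morpholinos, and for Snai2, Hes6, Dtx4 and Hey2 it was smaller. The SE of these values measures the spread between libraries of an animal, not between animals.

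**Figure D4:**
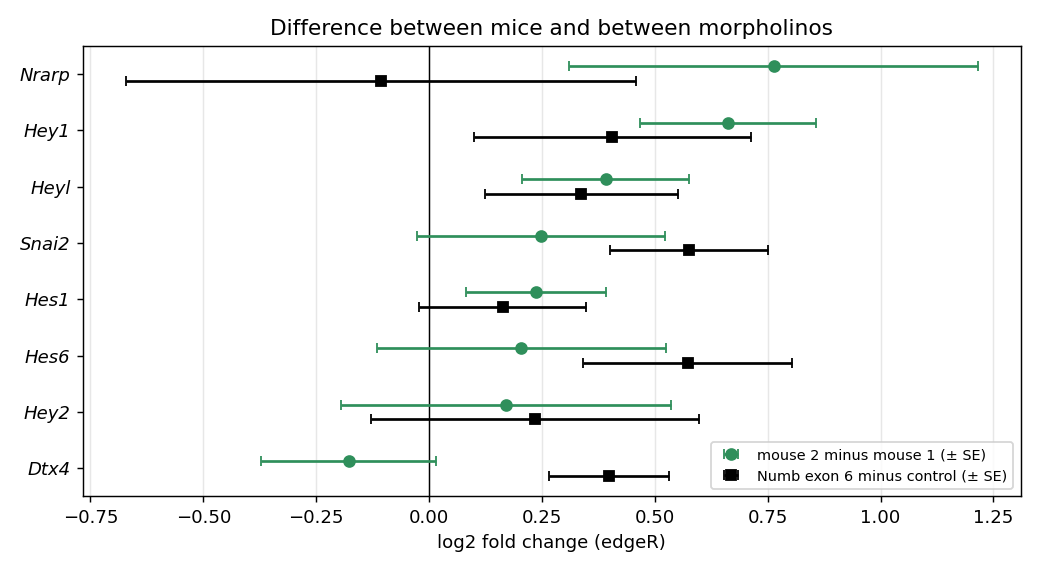
The edgeR log2 fold change ± SE of mouse 2 against mouse 1 (green circles) and of the Numb exon 6 against the control morpholino (black squares) for the 8 tested members. Hey1 differs more between the mice (0.66) than between the morpholinos (0.41), and Snai2 the other way round (0.25 and 0.58).

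The relatives of the members and the rest of the pathway were described by lists of genes, and edgeR called none of their members with or without the block. Of the 5 tested relatives of the Hes genes, 3 were higher in both mice and 0 lower, and the median log2 fold change was 0.24. Bhlhe40, a stress-responsive repressor of the same domain family and the most abundant of them at 62.9 TPM, had 0.28 ± 0.14, and Bhlhe41, its circadian relative, 0.10 ± 0.15 (SE). Of the 6 other Deltex and Snail genes 2 were higher and 1 lower in both mice, and the most abundant, Dtx3 and Dtx2, had 0.16 ± 0.26 and 0.12 ± 0.27 (SE). Snai1, the Snail paralogue of Snai2 and chosen after its values were seen, lay the other way, at -0.66 ± 0.31 (SE), with TPM of 3.35 and 3.07 in mouse 1 and 5.22 and 2.55 in mouse 2.

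Upstream of the effectors, the 4 receptors had a median log2 fold change of 0.008. Notch3 and Notch1, the most abundant, had 0.02 ± 0.10 and -0.26 ± 0.16 (SE). Of the receptors 1 was higher and 1 lower in both mice. The lower one was Notch1, with log2 ratios of -0.15 and -0.35 (edgeR unadjusted p = 0.157, and 0.0394 when blocked by mouse), and its groups overlapped. Of the 8 ligands 1 was higher and 2 lower in both mice. The higher one was Dll1, a ligand made by myogenic cells themselves, at 8.37 and 12.4 TPM in mouse 1 and 11.4 and 15.2 TPM in mouse 2, with a log2 fold change of 0.50 ± 0.21 (SE, edgeR unadjusted p = 0.0602; 0.0159 when blocked by mouse). Its libraries did not overlap between groups. Jag1, the most abundant ligand, had -0.10 ± 0.11 (SE). Of 19 genes for receptor processing and glycosylation, 7 were higher and 4 lower in both mice (median 0.03), and Ncstn, a subunit of the protease that releases the intracellular domain, had 0.13 ± 0.12 (SE).

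The 19 genes of the nuclear complex leaned the other way, with a median of -0.12, 4 of them higher and 13 lower in both mice. The difference was greatest for Ctbp2, a corepressor, which had 49.8 (control) and 29.0 CPM (Numb exon 6) in mouse 1, and 42.9 and 20.8 CPM in mouse 2. Its log2 fold change was -0.90 ± 0.21 (SE, edgeR unadjusted p = 0.0069, adjusted p = 0.999). Snw1 and Kdm5a, the most abundant of the list, had -0.10 ± 0.11 and 0.14 ± 0.20 (SE). Rbpj, the DNA-binding partner of Notch and chosen after its values were seen, had 0.16 ± 0.12 (SE).

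Of 10 genes that partner or antagonise Hes proteins, 4 were higher and 3 lower in both mice. Id1, an inhibitor of helix-loop-helix dimers, was lower, at 45.1 and 33.7 CPM in mouse 1 and 42.7 and 31.1 CPM in mouse 2, with a log2 fold change of -0.44 ± 0.13 (SE, edgeR unadjusted p = 0.0191). Its paralogues Id3 and Id2, the most abundant, had 0.21 ± 0.19 and -0.07 ± 0.19 (SE). The 5 genes that act on Notch by endocytosis or ubiquitin transfer had a median of 0.09, and Nedd4 and Itch, both ubiquitin ligases, had 0.11 ± 0.12 and 0.09 ± 0.19 (SE).

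Targets of Notch outside the 9 members showed no shared direction. Of 10 described in satellite cells 4 were higher and 2 lower in both mice (median -0.004), and Chrdl2 and Col6a1, the most abundant, had -0.007 ± 0.101 and -0.008 ± 0.161 (SE). Of 14 described in other tissues 3 were higher and 6 lower. Among these Bcl2, a survival factor, had 0.51 ± 0.15 and Cd44, a hyaluronan receptor, -0.47 ± 0.11 (SE, edgeR unadjusted p = 0.0171 and 0.0083), while Myc and Cdkn1a, the most abundant, had 0.10 ± 0.12 and -0.09 ± 0.26 (SE). Of the 7 myogenic regulators 1 was higher and 2 lower in both mice. The higher one was Myf5, the commitment factor, with a log2 fold change of 0.72 ± 0.24 (SE) and log2 ratios of 0.75 and 0.69 within the mice.

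**Figure D5:**
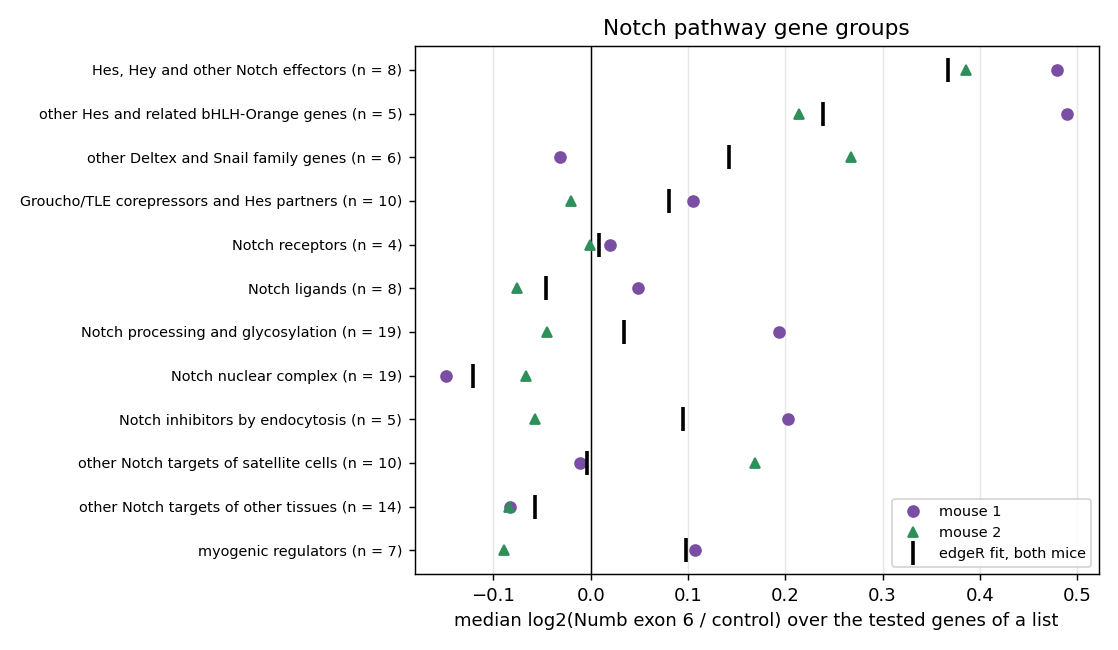
Median log2 ratio of the Numb exon 6 to the control morpholino over the tested genes of each list, within mouse 1 (circles) and mouse 2 (triangles), and the median edgeR log2 fold change (bars). The Hes, Hey and other effectors lie at 0.48 and 0.39 in the mice, the receptors at 0.02 and -0.001, and the nuclear complex at -0.15 and -0.07.

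Several members are also active in vessels and nerves, so markers of other cells were set beside them. The sums of these lists are in TPM, which the scaling of the libraries also enters, while log2 ratios within a mouse are of CPM. The 14 endothelial markers summed to 108 TPM (control) and 158 TPM (Numb exon 6) in mouse 1, and to 103 and 108 TPM in mouse 2, with 5 higher and 0 lower in both mice. Their median log2 ratio was 0.71 in mouse 1 and -0.03 in mouse 2. Tek, the most abundant of them, had 0.09 in mouse 1 and 0.19 in mouse 2, and Cldn5, the next, 0.52 and -0.29. Of the 6 members that were higher in both mice, Heyl had a log2 ratio that went from 0.50 in mouse 1 to 0.21 in mouse 2, Hes1 from 0.33 to 0.02, Snai2 from 0.69 to 0.48, Hes6 from 0.73 to 0.44, Dtx4 from 0.46 to 0.33, and Hey1 from 0.30 to 0.47. Of these 6 members, 5 had the lower ratio in mouse 2, Hey1 being the exception. The median ratio of the satellite cell markers was also lower in mouse 2, at 0.12 beside 0.20 in mouse 1. So were those of the pericyte, glial, myofibre and erythroid lists, while those of the fibro-adipogenic, tenocyte and leukocyte lists were higher there. What lies behind these shifts was not tested. The 11 pericyte and smooth muscle markers, led by Acta2 and Notch3, summed to 238 and 270 TPM in mouse 1 and to 197 and 216 TPM in mouse 2, with 8 higher in both. Notch3, at 57.1 to 67.6 TPM per library, is also on the receptor list. The 9 glial markers, led by Mbp, summed to 19.6 and 38.2 TPM in mouse 1 and to 20.1 and 21.0 TPM in mouse 2.

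Fibro-adipogenic markers, led by Gsn and Col3a1, summed to 1553 and 1667 TPM in mouse 1 and to 1427 and 1542 TPM in mouse 2, with 6 of 10 higher and 2 lower in both. The 13 leukocyte markers, led by Cd68 and S100a8, summed to 33.2 and 43.8 TPM in mouse 1 and to 38.0 and 134 TPM in mouse 2, with 9 higher and 2 lower in both. Their median log2 fold change, 1.39, was the largest of the lists described. Cd68 had 0.02 ± 0.18 (SE), while S100a8 reached 46.5 TPM in mouse 2 with the Numb exon 6 morpholino, beside at most 4.23 TPM elsewhere. At an unadjusted edgeR p under 0.05 stood 4 of the 13, all higher, beside 4.16% of all tested genes. Named after their values were seen, they were the myeloid genes Tyrobp at 2.33 ± 0.72, Fcer1g at 2.13 ± 0.47, Itgam at 1.59 ± 0.57 and Lyz2 at 1.39 ± 0.30 (log2 fold change ± SE). Their mean levels were low, at 1.08, 1.39, 0.18 and 11.4 TPM. The 2 markers lower in both mice, Csf1r and C1qa, are also myeloid and were also named after their values were seen. They had -0.46 ± 0.31 and -0.44 ± 0.89 (SE). Tenocyte markers (5 of 7 higher and 1 lower in both, led by Thbs4 and Fmod), myofibre markers (4 of 10 and 1, led by Actn3 and Atp2a1) and erythroid markers (5 of 6 and 0, led by Hba-a1 and Hbb-bs) summed to 52.6 to 66.5, 155 to 181 and 538 to 1733 TPM per library. The satellite cell markers were themselves 8 of 12 higher and 1 lower in both mice, and their median log2 fold change was 0.13. None of these markers was at 0 in all 4 libraries, and the part of other cells in the values of the members was not tested.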

How the data were processed

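The deposited tables hold 1 library per morpholino and mouse. The authors' deposited expected counts are whole-number estimates per gene, and the deposited TPM were normalised by the authors for the length of transcripts and for the library. HISAT2 2.1.0, StringTie 1.3.6 and GRCm38 are named in the submitters' processing notes, which give no annotation release and no account of how coverage became counts. A count of 4 was listed for 1545 to 1789 genes per library, 8 for 709 to 853 and 12 for 417 to 474. Counts between these were not tallied. A single fragment may be worth 4 counts, which was not tested, and the depth in fragments is unknown.

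The main test was edgeR 4.0.16 in R 4.3.3 (quasi-likelihood, robust, TMM factors, default filter by group, no block, Benjamini-Hochberg over 27551 genes at 0.05). SEs come from the quasi-likelihood statistic. Log2 ratios within a mouse use CPM with a prior count of 2. The libraries of a mouse come from 1 animal, so the mouse pairs them, and after removal of group means they deviated together (correlation 0.41 across 8540 genes). The labels name 2 mice, so p-values measure the spread between libraries of 2 animals. Alternatives were the mouse block, DESeq2 1.42.0, limma 3.58.1 (voom, and log2(TPM + 1) and log2(TPM + 0.1)), other size factors and filters, counts divided by 4, and each library left out.

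Mean transcript length is the count divided by TPM and by a constant per library, taken from genes with 1 annotated transcript and over 500 counts (at least 99.96% of them within 1% of it). Coordinates are from GENCODE vM21 on GRCm38 and promoter windows from RefSeq on GRCm38.p6. The members and lists were chosen with earlier results of these data known. Besides the members, the genes named are the 2 most abundant of each list and up to 4 of each pathway list at an unadjusted p under 0.05, with others said to be chosen later. 2 of these genes are not reported here.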

Additional observations from a re-analysis of the deposited data

How the results depend on the processing

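Over all genes the morpholino comparison called 0 in edgeR, 65 in DESeq2 without a block and 159 with the mouse as replicate block, 10 without a filter on low counts, 1 with a filter at 5 CPM in 2 libraries, and 0 to 1 without each library in turn. Of the members it called 0, except 1 (Snai2) in DESeq2 with the mouse as a block. At an unadjusted p under 0.05 stood 2 members, 5 with the mouse as a block in edgeR and in DESeq2, and 0 to 3 without each library in turn. The mouse comparison called 7 genes, 1 with the morpholino as a second term (the replicate block there), 495 in DESeq2, 43 with that stricter filter, 11 with counts divided by 4, and 1 to 14 without each library, and 0 members in each of them.

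Snai2, Hes6, Dtx4 and Heyl were higher with the Numb exon 6 morpholino under all 15 alternatives (the stricter filter included), with log2 fold changes between 0.09 and 0.77. Without each library in turn Hes1 ran from -0.022 to 0.37, Hey1 from -0.0080 to 0.73, Hey2 from -0.10 to 0.51 and Nrarp from -0.70 to 0.90. Nrarp also turned to 0.10 with the mouse as a block in edgeR and to 0.10 in DESeq2, to 0.14 in limma-voom, and to 0.019 and 0.12 on log2(TPM + 1) and log2(TPM + 0.1). Between the mice, without each library, Hes6 ran from -0.11 to 0.61, Hey2 from -0.21 to 0.47, Dtx4 from -0.39 to 0.069 and Snai2 from -0.058 to 0.63. A library left alone in its group was taken to vary like the others. Hes5 gave no fit past the filter, and the stricter filter dropped Hey2 and Nrarp. Hes5, at 0 to 20 estimated counts, was below what this depth can test. Nrarp and Hey2 had 249 to 661 and 328 to 473 estimated counts, and with counts divided by 4 their log2 fold changes were -0.096 ± 0.550 and 0.23 ± 0.37 (SE). The causes of these shifts were not tested.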
